A study of Mus musculus with 32 samples.

Results

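Collagen chain genes were taken as the protein-coding rows whose symbol has the form Col, a number, the letter a and a number. This rule gave 44 of the 54532 genes in the table, of which 43 passed the filter on low counts and were tested among 17121 genes. Col10a1, a short-chain collagen of cartilage that turns to bone, was not tested, with 0 to 51 counts per library. The 44 genes comprise 11 fibrillar chains, 6 chains of type IV, 2 multiplexins, 6 chains of type VI, 9 fibril-associated chains (FACIT), 3 short-chain, 4 transmembrane and 3 other chains.

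Collagens are triple helices of chains that are secreted and assembled outside the cell. Fibrillar collagens form the tensile fibrils of tendon and of the sheaths around muscle fibres, type IV forms the sheet of the basement membrane that wraps each fibre and capillary, and type VI forms beaded filaments between them. In muscle most interstitial collagen comes from fibroblasts and fibro-adipogenic progenitors, and the matrix laid down after injury is later reduced or, where it persists, becomes scar.

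RNA-seq was done on tibialis anterior muscle of C57BL/6J mice, young or old, without injury or after BaCl, that is barium chloride, a salt that destroys muscle fibres and spares their stem cells. Young vehicle mice and old vehicle mice were sampled uninjured and at day 7 and day 35 after injury, and old mice given BI01, which the series calls senolytic in work on the binding of p53 to MDM2, at day 7 and day 35. Each of the 8 groups had 4 libraries, 32 in all. No ages, doses or dosing times are given in the sources used here, and the uninjured libraries are marked PBS and carry the name of the 35-day set. Day 7 against uninjured or day 35 muscle therefore cannot be told apart from a difference between collection sets. Libraries are named by their number in the table, and 4 values in a row follow those numbers in rising order. Whether the 4 libraries of a group are 4 animals is not stated, and the p-values measure only the spread between these samples, which may be technical.

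Libraries held 14129350 to 30439358 counts. Levels are given in CPM, counts per 1000000 counts of the library, after TMM scaling, which sets libraries against each other by the bulk of their genes. A gene is called where the adjusted p of edgeR's quasi-likelihood test (Benjamini-Hochberg over all genes tested) is under 0.05, and the percentage of all tested genes called is given with the first count of each comparison. Scaling by library size alone instead put the median gene at a log2 fold change of 1.05 rather than 0.17 in young muscle at day 7, and of 1.15 rather than 0.14 in old muscle. Uninjured libraries stood apart in other ways: old library 7 held 1199 CPM of 8 regenerating fibre markers (103 to 389 CPM in the other old ones), and young libraries 1 and 3 held 70.7 and 61.9 CPM of 10 keratinocyte markers, which in the young group were mostly Trp63. In this bulk tissue, fewer cells of a type and less RNA per cell cannot be told apart.

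Promoter sequences show how differently these genes begin, for the chains that the results below turn on. Of the 44 genes, 35 matched the RefSeq promoter table (GRCm38.p6). Each run holds the 150 bases before the start of the gene, 5′ to 3′ on its own strand, with capitals at matches to TATAAA or to GGGCGG on either strand. Col3a1 (chr1:45311388-45311537, plus strand), the chain of type III collagen, and Col8a1 (chr16:57754738-57754887, minus strand), a short-chain collagen, are 2 of the chains that rose at day 7. Col24a1 (chr3:145292322-145292471, plus strand) is the minor fibrillar chain still raised at day 35. Col9a1 (chr1:24177460-24177609, plus strand) and Col7a1 (chr9:108953436-108953585, plus strand) are 2 of the chains that fell at day 7.
Col3a1: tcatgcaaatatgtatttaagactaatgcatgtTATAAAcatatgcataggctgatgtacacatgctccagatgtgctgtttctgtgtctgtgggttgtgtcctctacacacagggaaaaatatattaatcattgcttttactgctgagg
Col8a1: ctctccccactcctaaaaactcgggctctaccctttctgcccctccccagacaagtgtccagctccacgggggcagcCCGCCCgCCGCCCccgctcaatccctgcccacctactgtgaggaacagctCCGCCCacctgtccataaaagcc
Col24a1: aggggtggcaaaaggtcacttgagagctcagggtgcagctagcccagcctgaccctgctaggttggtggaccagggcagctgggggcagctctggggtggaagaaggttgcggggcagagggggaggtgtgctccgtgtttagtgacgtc
Col9a1: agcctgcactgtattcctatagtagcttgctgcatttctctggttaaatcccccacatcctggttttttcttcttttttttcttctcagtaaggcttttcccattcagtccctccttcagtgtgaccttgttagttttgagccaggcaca
Col7a1: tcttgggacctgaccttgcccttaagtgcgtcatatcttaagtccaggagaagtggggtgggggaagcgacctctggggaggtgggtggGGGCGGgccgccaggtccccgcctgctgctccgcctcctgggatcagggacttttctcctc

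The Col3a1 run holds 1 TATAAA and the Col8a1 run 3 copies of GGGCGG on the other strand. No letters of either motif lie in the runs of Col24a1 and Col9a1, and Col7a1 holds 1 GGGCGG. In the 250 bases before the start, GGGCGG on either strand was in 21 of the 35 collagen promoters (60%) and in 32.9% of all 27025 promoters in the table. TATAAA was in 5 of 35 (14.3%, against 13%), CCAAT in 12 of 35 (34.3%, against 34.5%) and TGANTCA in 1 of 35 (2.86%, against 6.87%). These matches describe letters, not bound sites.

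The type IV genes lie in head-to-head pairs, and the group means of the pairs were not all closely correlated. Col4a1 and Col4a2, the chains of the common basement membrane network, start from the same stretch of chromosome 8, where the first 22 bases of the one overlap the first 22 of the other. The 30 bases around it (chr8:11312801-11312830, plus strand) are shown with that overlap in capitals.
Col4a1 and Col4a2 shared start: cggcAGTGCGCGGGCGGCGTCTCCAAgggg
Col4a4 and Col4a3 on chromosome 1 start 71 bases apart, and Col4a6 and Col4a5 on chromosome X 1308 bases apart. Over the 8 group means of log2 CPM, Pearson's r was 0.999 between Col4a1 and Col4a2, 0.941 between Col4a3 and Col4a4, and 0.219 between Col4a5 and Col4a6. Col4a6 held only 6 to 73 counts over a group, so the value of its pair rests on few counts. These correlations describe group means from shared libraries. The counting's use of strand is not given in the sources used here, so reads in overlapping stretches cannot be assigned to one gene with certainty.

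In uninjured muscle basement membrane and fibrillar collagen were of like abundance per kilobase of gene length, but not in CPM. In CPM the fibrillar chains had the higher mean sum, 232 ± 130 against 142 ± 37.7 for type IV in young muscle (SD, n = 4). In old muscle these sums were 285 ± 138 and 149 ± 18.4 CPM. Per kilobase of gene length, the leading chain in young muscle was Col4a1 at 9.94 ± 2.97 CPM per kb (SD, n = 4), followed by Col4a2 (9.67 ± 2.22), Col3a1 (7.79 ± 5.59) and Col6a1 (6.37 ± 3.02). Neighbours in that order differed by less than their SD. In old muscle Col4a2 (10.4 ± 1.09), Col3a1 (10.2 ± 5.95) and Col4a1 (10.1 ± 1.52) led, again within their SD of each other. Of all collagen per kilobase, the fibrillar chains made up 36.7% ± 6.60 in young and 38.9% ± 8.44 in old muscle (SD, n = 4), type IV 31.9% ± 5.64 and 27.6% ± 5.84, and type VI 16.1% ± 1.46 and 14.2% ± 1.71. Summed over all 44 chains, the 4 young libraries held 317, 746, 349 and 676 CPM, with libraries 2 and 4 each above libraries 1 and 3. The old libraries held 659, 854, 622 and 409 CPM, a range that overlaps the young one.

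**Figure D1:**
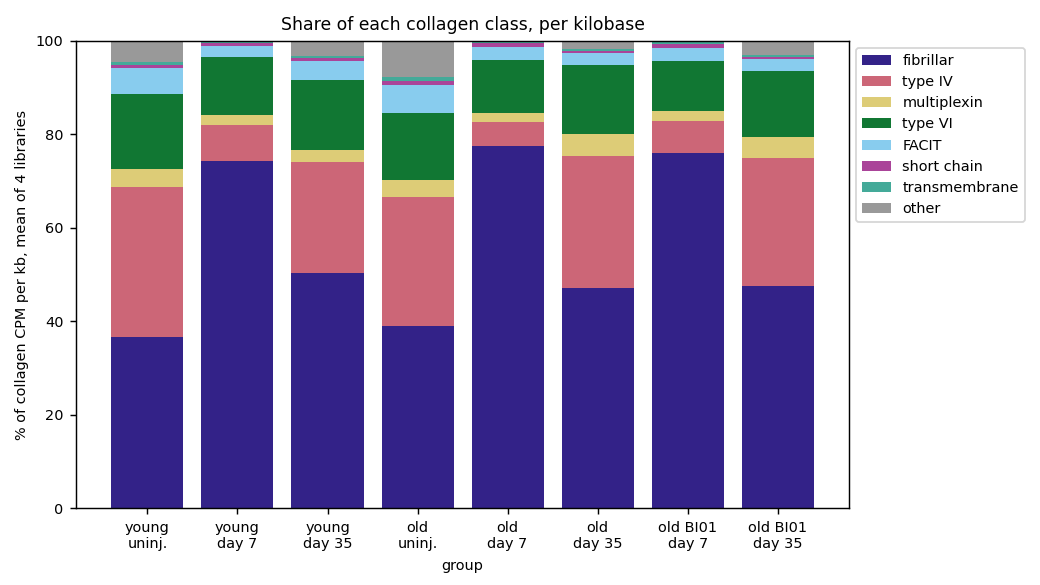
Stacked bars give the mean share of each collagen class in the summed collagen level per kilobase, in percent, for the 8 groups of 4 libraries. Fibrillar chains take 36.7% to 38.9% without injury, 74.2% to 77.4% at day 7 and 47.0% to 50.2% at day 35, and type IV goes from 31.9% and 27.6% to 7.70% and 5.30% at day 7 in vehicle mice.

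Between old and young uninjured muscle 3 of the 43 chains were called, all higher in old muscle. Of all genes 5.79% were called higher and 7.65% lower, so the count of higher chains was near that share. Col11a2, a chain of type XI collagen, held 4.87, 2.31, 5.24 and 3.28 CPM in young and 10.8, 10.9, 7.60 and 10.2 CPM in old muscle, without overlap (log2 fold change 1.33, SE 0.33, adjusted p = 0.00688). Col4a5, a type IV chain found in a subset of basement membranes, rose from 1.08, 0.979, 0.184 and 0.386 to 1.75, 2.11, 1.76 and 1.90 CPM (log2 fold change 1.48, SE 0.38, adjusted p = 0.0086). The old values were close together and all above the young ones, which spread over a wider relative range. Col7a1, the chain of the anchoring fibrils that tie epithelia to connective tissue, rose from 23.5, 36.3, 20.8 and 28.1 to 47.8, 68.5, 60.5 and 60.2 CPM (log2 fold change 1.13, SE 0.33, adjusted p = 0.0225). Keratinocytes make Col7a1 in skin. Their 10 markers summed to 70.7, 18.6, 61.9 and 9.36 CPM in the young and 20.9, 28.8, 25.6 and 21.5 CPM in the old libraries, and none of the 4 tested was called. Most of the sum was Trp63, with a mean of 36.3 CPM in young and 18.4 CPM in old muscle. Krt10 went from 0.606 to 1.34 CPM and Sfn from 2.00 to 3.33 CPM, Perp from 0.798 to 1.01 CPM, and Krt5, Krt14, Krt15, Krt1 and Dsp averaged at most 0.133 CPM in young and were at 0 in old muscle. The part of these markers in the level of Col7a1 was not tested. Col7a1 lost its call without young library 1, young library 3 or old library 7 (adjusted p = 0.078, 0.0981 and 0.0642), and Col4a5 without young library 3 (adjusted p = 0.0554). Without young library 3 the count of called chains was 1, and without young library 4 or old library 9 it was 6. The major chains did not pass the test. Col1a1, a chain gene of type I collagen, held 16.6, 64.0, 19.3 and 59.8 CPM in young and 39.6, 71.7, 39.2 and 14.6 in old libraries, with overlap. Its log2 fold change was 0.05 (95% interval -0.86 to 0.96), and the sign turned when single libraries were left out.

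At day 7 after injury chains of all 8 classes were called higher at both ages. In young muscle 34 chains were called higher and 1 lower of 43 tested, where 33.3% of all genes were called higher and 27.5% lower. In old vehicle muscle 31 were called higher and 3 lower, against 34.4% and 29.8% of all genes. The median log2 fold change of the 43 chains was 3.35 in young muscle (3.26 with 1 gene, absent without injury, at its lower bound) and 3.36 in old muscle, beside 0.17 and 0.14 over all genes. Of the 34 chains higher in young muscle, 31 (91.2%) were also higher in old muscle, which is all of the old list (100%). Col11a2, Col20a1 and Col24a1 were called in young muscle alone, and of these the difference between the ages passed a test for Col11a2, given below.

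**Figure D2:**
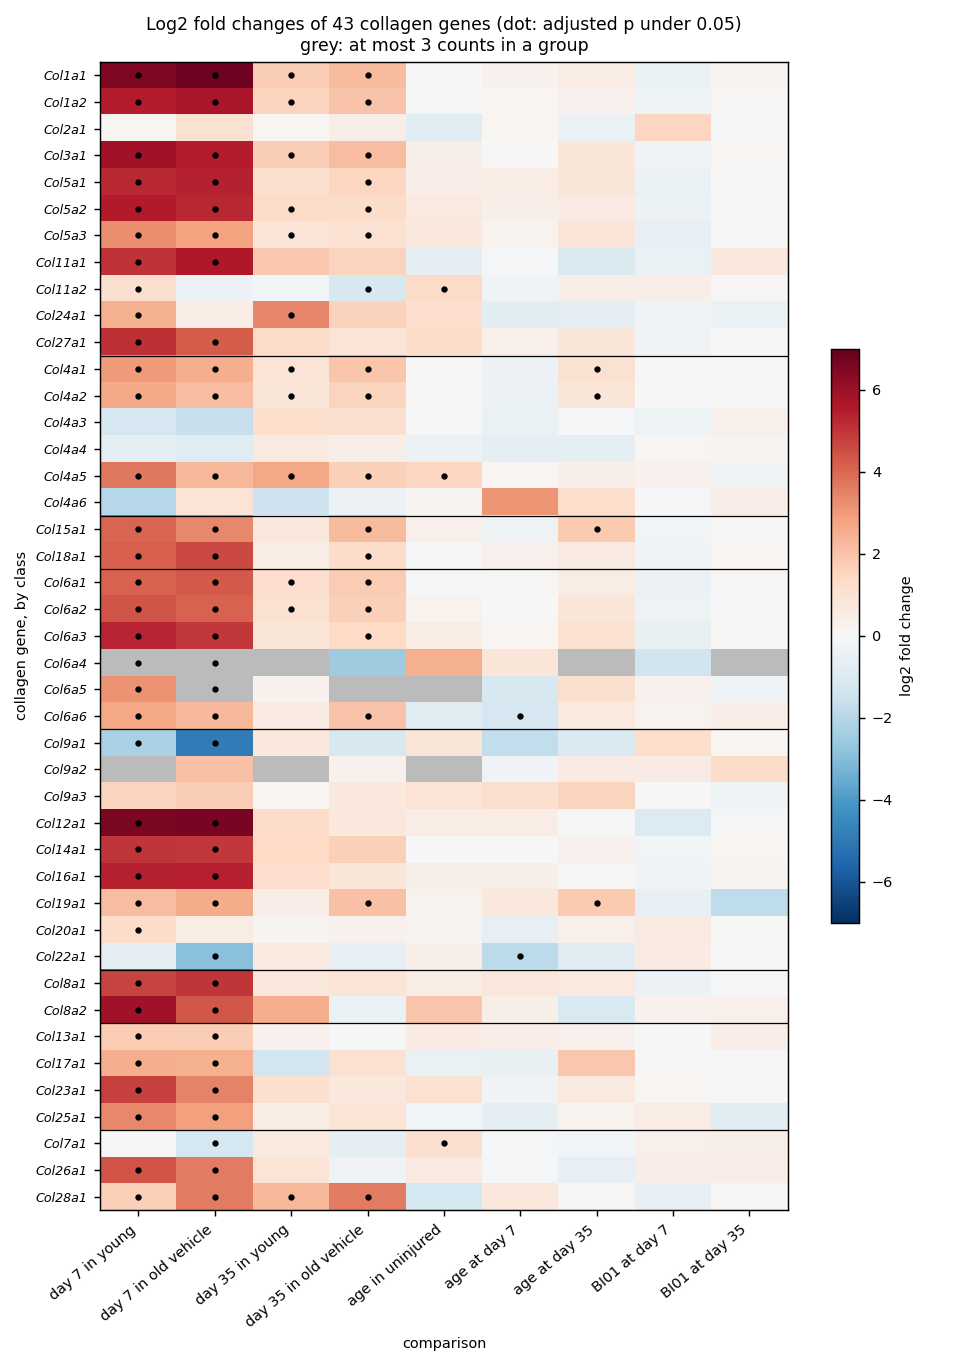
Colours give the log2 fold change of the 43 tested collagen genes (rows, by class) in 9 comparisons (columns), dots mark an adjusted p under 0.05, and grey marks 11 cells with at most 3 counts in a group. The day 7 columns hold dots for the 34 and 31 chains called higher, which are red except Col6a4 at both ages and Col6a5 in old muscle (grey). The day 35 columns are paler, and the BI01 columns hold no dot.

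Of the 11 fibrillar chains, 10 were called higher at day 7 in young and 8 in old muscle and none was called lower. Col1a1 went from 16.6, 64.0, 19.3 and 59.8 CPM to 4122, 4558, 4019 and 2331 CPM in young muscle (log2 fold change 6.56, SE 0.56, adjusted p = 6.46e-11). In old muscle it went from 39.6, 71.7, 39.2 and 14.6 to 6577, 4106, 3127 and 4985 CPM (log2 fold change 6.83, SE 0.57, adjusted p = 3.06e-11). The lowest injured library was far above the highest uninjured one at both ages. Col3a1, the chain of the fine reticular fibres of early repair, reached 4925, 4361, 5043 and 3538 CPM in young muscle from 33.1, 132, 25.6 and 115 (log2 fold change 5.87, SE 0.52, adjusted p = 1.02e-10). In old muscle it reached 5301, 4193, 4052 and 4240 CPM from 88.2, 179.7, 94.8 and 39.1 (log2 fold change 5.47, SE 0.51, adjusted p = 2.08e-10). The type V chains, which seed fibrils and set their width, rose too, by log2 fold changes of 5.30 for Col5a1, 5.55 for Col5a2 and 3.26 for Col5a3 in young and 5.37, 5.28 and 2.80 in old muscle. Col11a1 of type XI collagen rose by 5.03 and 5.58, and Col27a1, a minor fibrillar chain, by 5.11 and 4.22. Col2a1, the main collagen of cartilage, was not called at either age (0.16 and 1.07, adjusted p = 0.909 and 0.4).

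The 2 remaining fibrillar chains, Col24a1 and Col11a2, were each called at day 7 in young muscle and not in old. Col24a1, a minor fibrillar chain best known from developing bone, held 0.850, 1.25, 1.01 and 9.74 CPM uninjured and 21.8, 14.9, 14.8 and 20.1 CPM at day 7 in young muscle (log2 fold change 2.50, SE 0.61, adjusted p = 0.000948). Old muscle held 8.62, 6.21, 5.68 and 7.82 CPM uninjured and 6.70, 11.6, 11.3 and 11.1 CPM at day 7, with overlap (log2 fold change 0.52, SE 0.56, adjusted p = 0.423). The difference between these responses did not pass the test (-1.98, SE 0.82, adjusted p = 0.134). With library size alone the old change became 1.51 and passed the threshold (adjusted p = 0.0194). Col11a2 held 6.32, 9.78, 10.2 and 8.56 CPM at day 7 in young muscle (log2 fold change 1.15, SE 0.33, adjusted p = 0.00315) and 4.09, 6.79, 9.99 and 8.64 CPM in old muscle (log2 fold change -0.42, SE 0.31, adjusted p = 0.236), where its sign turned with library size alone (0.55). The 10 cartilage and bone markers summed to 3.56 to 8.27 CPM in young uninjured and 12.7 to 21.8 CPM in young day 7 libraries. Ibsp was at 0 in both groups, and 6 of the 10 were without counts in the young uninjured group. In old muscle the sums went from 3.39 to 5.77 CPM to 17.2 to 22.7 CPM, with Hapln1 and Ibsp at 0. Most of each mean sum was Sox9 (means of 4.62 and 11.3 CPM in young and 2.39 and 15.3 CPM in old muscle). The part of these markers in the levels of Col2a1, Col9a1, Col11a1 and Col11a2 was not tested.

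**Figure D3:**
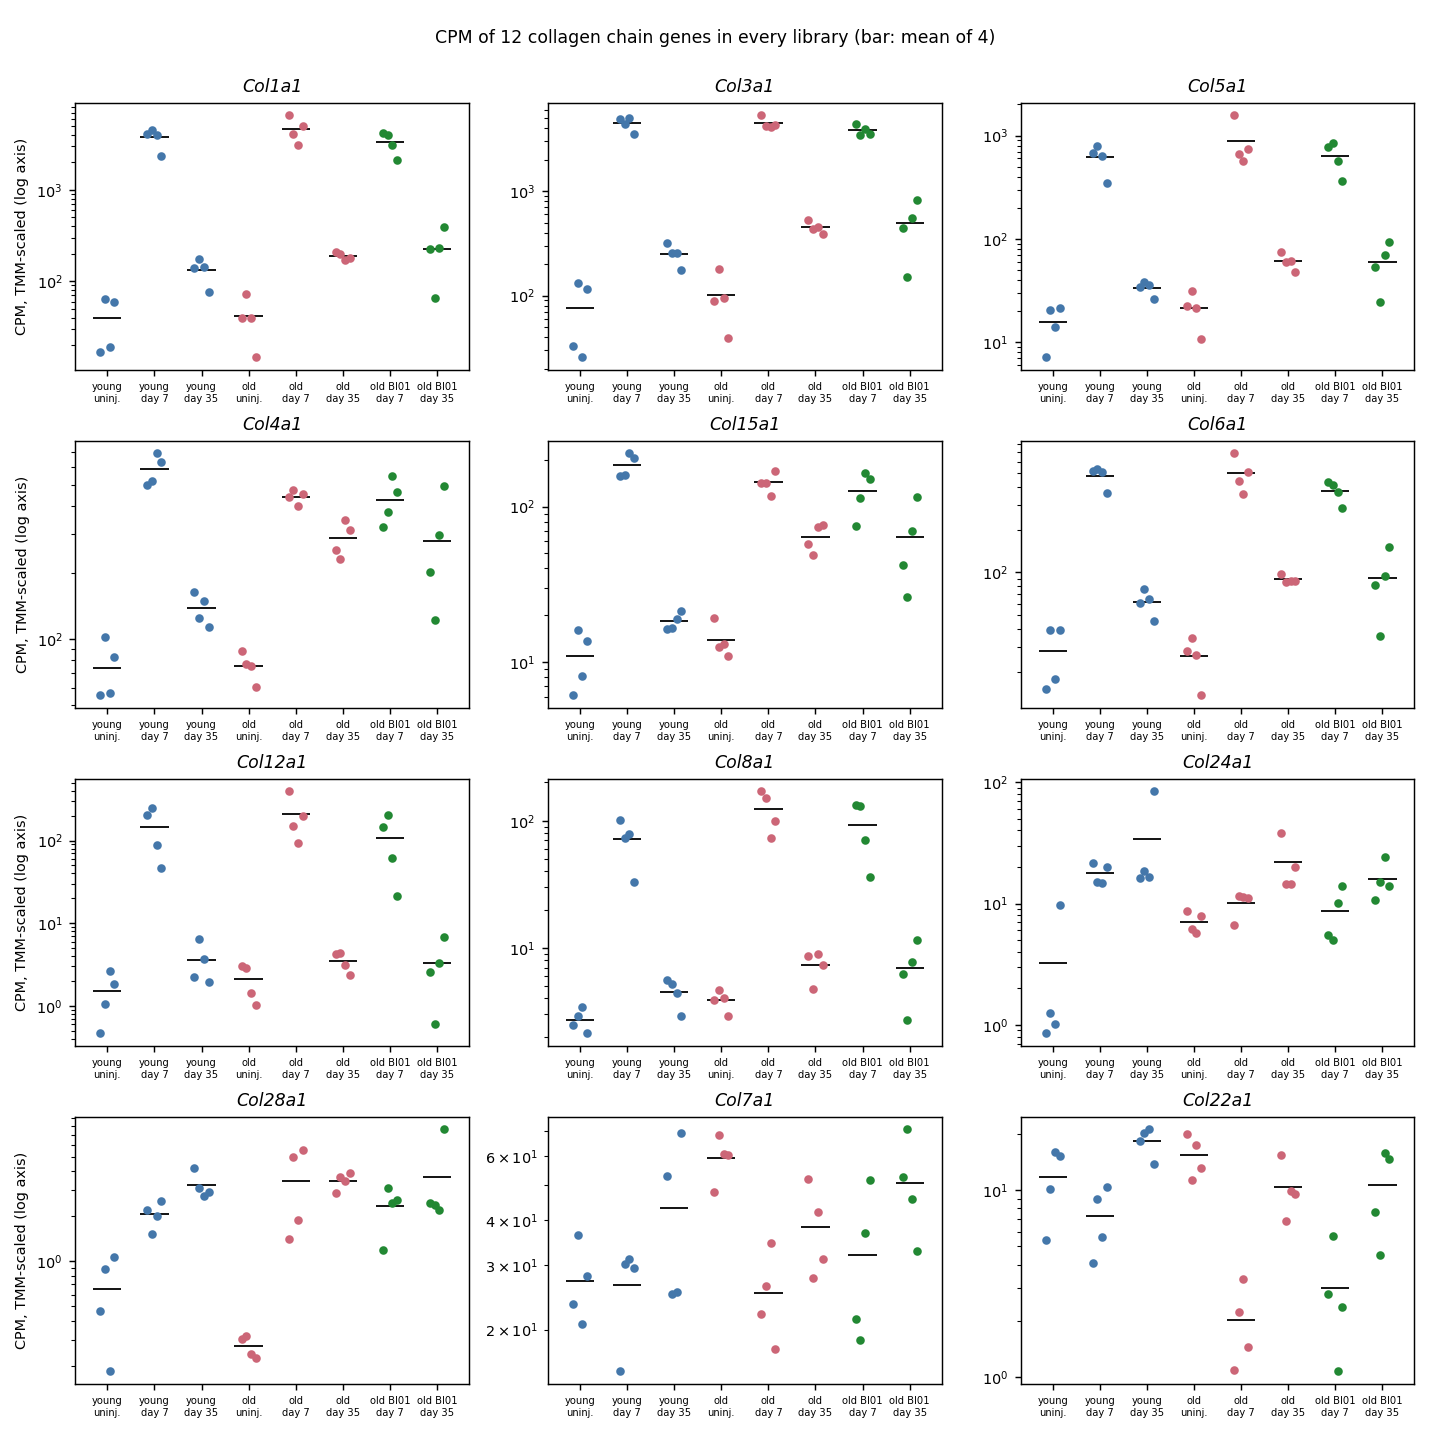
Points are TMM-scaled CPM of 12 collagen genes in each library on log axes, by group, and bars are means of 4 libraries. Col1a1, Col3a1, Col5a1, Col6a1, Col12a1 and Col8a1 peak at day 7 in all 3 injured series, Col24a1 and Col28a1 stay up at day 35, and Col22a1 is lowest at day 7 in old muscle.

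All 6 type VI chains were called higher at day 7 at both ages, Col6a4 and Col6a5 from few counts. Col6a1, one of the core chains whose mutation causes congenital muscular dystrophy, went from 15.2, 39.1, 17.7 and 39.5 to 518, 532, 507 and 359 CPM in young muscle (log2 fold change 4.10, SE 0.36, adjusted p = 9.99e-11). Its values in old muscle went from 28.2, 34.9, 26.1 and 13.7 to 688, 437, 357 and 509 CPM (log2 fold change 4.28, SE 0.36, adjusted p = 4.24e-11). Young library 7 was the lowest of its group for Col6a1 and for the sum of all chains, and it held the most mature fibre marker RNA of that group (160434 CPM, where the lowest held 75385 CPM). Col6a6, which can stand in for Col6a3 in the filament, went from 2.32, 3.47, 3.68 and 4.15 to 17.0, 17.9, 20.5 and 32.7 CPM in young (log2 fold change 2.70, SE 0.34, adjusted p = 4.32e-08) and from 2.36, 2.51, 2.32 and 1.04 to 5.38, 8.83, 12.8 and 11.7 CPM in old muscle (log2 fold change 2.24, SE 0.34, adjusted p = 9.01e-07). Col6a2 and Col6a3, the other core chains, rose by 4.38 and 5.33 in young and 4.11 and 4.95 in old muscle. Col6a5 rose from 7 to 121 counts over the young group (3.14, adjusted p = 0.0178) and from 2 to 62 counts over the old group, a ratio of shares of 22.0 (95% interval from 5.85 to 185.9, counting error only). Col6a4 had no count in any young uninjured library and was at least 4.32-fold higher at day 7, taking 3 counts over the group as its floor. Its 4 young day 7 libraries held 0, 22, 0 and 3 counts, so the rise rests on library 5 (adjusted p = 0.26 without it). The young call did not hold with DESeq2 (adjusted p = 0.0603) or limma voom (adjusted p = 0.42). In the old group Col6a4 went from 2 to 53 counts, a ratio of shares of 18.8 (95% interval from 4.96 to 159.5), with an adjusted p of 0.0518 by DESeq2.

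Among the fibril-associated chains 5 of 9 rose and 1 fell in young muscle, and 4 rose and 2 fell in old muscle. Col12a1, which coats type I fibrils and bears on tendon and muscle stiffness, went from 0.464, 1.07, 2.67 and 1.83 to 202, 244, 89.2 and 46.2 CPM in young muscle (log2 fold change 6.62, SE 0.81, adjusted p = 1.08e-07). Old muscle went from 3.05, 2.90, 1.44 and 1.04 to 394, 149.6, 92.1 and 199.7 CPM (log2 fold change 6.63, SE 0.78, adjusted p = 4.7e-08). Its rise was about the size of that of Col1a1, and its day 7 values spread more widely, from 46.2 to 244 CPM in young muscle. Col14a1, another coat of type I fibrils, rose by 5.003 and 4.97, Col16a1 by 5.41 and 5.42, and Col19a1, a chain of basement membrane zones, by 2.15 and 2.61 in young and old muscle. Col20a1 was called in young muscle (1.27) and not in old (0.51, adjusted p = 0.128). Col9a2 and Col9a3, the partners of Col9a1 in type IX collagen, had at most 59 counts over a group at day 7 and were not called (adjusted p between 0.0536 and 0.309).

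The chains called lower at day 7 were Col9a1, Col22a1 and Col7a1. Col9a1, a fibril-associated chain of cartilage, held 0.618, 4.36, 0.552 and 4.24 CPM in uninjured young muscle and 0.947, 0.593, 0.0897 and 0.306 CPM at day 7, with overlap (log2 fold change -2.28, SE 0.79, adjusted p = 0.0135). In old muscle it fell from 5.64, 2.87, 3.52 and 5.74 CPM to 0 in 3 libraries and 0.613 CPM in library 9 (log2 fold change -4.88, SE 0.89, adjusted p = 2.14e-05). With library size alone the young fall was -1.35 and was not called (adjusted p = 0.132). Col22a1, a chain of the junction between muscle fibre and tendon, held 5.41, 10.1, 15.9 and 15.2 CPM and 4.07, 8.94, 5.61 and 10.3 CPM in young muscle without and with injury (log2 fold change -0.69, SE 0.42, adjusted p = 0.155), and its sign turned under scaling by library size alone (0.18). The fall in old muscle was from 19.8, 11.3, 17.4 and 13.1 to 1.09, 2.23, 3.33 and 1.46 CPM, without overlap (log2 fold change -2.92, SE 0.45, adjusted p = 1.97e-06). The 10 tenocyte markers summed to 62.3 to 135 CPM in old uninjured and 208 to 302 CPM in old day 7 libraries, with 4 called higher and 1 lower. Thbs4 made up much of that sum (a mean of 49.5 CPM uninjured and 192 CPM at day 7), while Angptl7 of the same list averaged 3.55 and 0.910 CPM, and the part of tendon cells in the level of Col22a1 was not tested. Col7a1 did not pass the test in young muscle (log2 fold change -0.03, SE 0.33, adjusted p = 0.943; 0.84 with library size alone). In old muscle it fell from 47.8, 68.5, 60.5 and 60.2 to 22.1, 26.4, 34.5 and 17.8 CPM (log2 fold change -1.24, SE 0.33, adjusted p = 0.00184), a fall that was -0.24 and not called with library size alone (adjusted p = 0.515).

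The fall of Col22a1 and the response of Col11a2 differed between the ages. They were the 2 of 43 chains called in the test of the old minus young day 7 response. Of all genes 7.7% were called, so chains were not called more often than genes at large. For Col22a1 the difference was -2.23 (SE 0.61, adjusted p = 0.0231), and for Col11a2 it was -1.57 (SE 0.45, adjusted p = 0.03). Mean Col11a2 levels in young and old muscle were 3.93 and 9.86 CPM uninjured and 8.72 and 7.38 CPM at day 7. Fitted on the 4 groups compared alone, neither was called (adjusted p = 0.0509 and 0.0649). The count was 0 without young day 7 library 7, 1 without any of young uninjured library 1, old uninjured libraries 6 or 7, young day 7 library 6 or old day 7 libraries 7 or 8, 4 without young uninjured library 4 and 5 without old day 7 library 9. Levels at day 7 differed by age for Col22a1 (-1.83, SE 0.44, adjusted p = 0.0277) and Col6a6 (-1.18, SE 0.31, adjusted p = 0.0367), both lower in old muscle without overlap, where 0.251% of all genes were called higher and 2.18% lower. Fitted on those 2 groups alone no chain was called, none was called when young library 7, old library 7 or old library 8 was left out, and 1 was called without young library 6. Old day 7 library 7 had the least mature fibre marker RNA of its group (11275 CPM, against up to 71204) and the highest collagen share of counts (4.39%).

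Both short-chain genes tested rose at day 7. Col8a1, which builds lattices around vessels, went from 2.47, 2.94, 3.40 and 2.12 to 102, 73.6, 78.1 and 32.9 CPM in young (log2 fold change 4.71, SE 0.45, adjusted p = 8.25e-10) and from 3.89, 4.66, 4.00 and 2.89 to 171, 150.4, 72.6 and 99.7 CPM in old muscle (log2 fold change 4.998, SE 0.44, adjusted p = 1.58e-10). Col8a2, its partner chain, had no count in 2 of the 4 young uninjured libraries and 0.368 and 0.386 CPM in the others, and rose to 14.6, 11.1, 13.8 and 4.58 CPM (log2 fold change 5.90, SE 0.86, adjusted p = 1.07e-06). Its old values went from 1.60, 1.03, 0.240 and 0.0452 to 9.82, 26.1, 11.8 and 9.91 CPM (log2 fold change 4.33, SE 0.69, adjusted p = 3.52e-06). All 4 transmembrane chains rose at both ages. Col23a1 led them, from 0.773, 0.445, 0.827 and 1.74 to 28.3, 33.3, 25.4 and 16.7 CPM in young muscle (log2 fold change 4.79, SE 0.38, adjusted p = 1.18e-11). Col13a1, a chain of the neuromuscular junction, rose by 1.80 and 1.72, Col17a1, a chain of skin hemidesmosomes, by 2.54 and 2.50, and Col25a1, needed by motor axons to enter muscle, by 3.35 and 2.87 in young and old muscle. Col26a1 rose by 4.41 and 3.64.

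Basement membrane collagen rose too, but made up less of all collagen at day 7 than without injury. In each age 3 of the 6 type IV chains were called higher and none lower, and both multiplexins were called higher. Col4a1 went from 55.4, 102, 57.0 and 82.8 to 499, 521, 694 and 635 CPM in young muscle (log2 fold change 2.99, SE 0.28, adjusted p = 2.96e-10) and from 88.3, 77.2, 75.3 and 60.7 to 442, 475, 399 and 452 CPM in old muscle (log2 fold change 2.55, SE 0.28, adjusted p = 3.13e-09). Its partner Col4a2 rose by 2.63 and 2.14. Col4a5 rose by 3.71 and 2.35, while Col4a3, a chain of specialised basement membranes such as that of the kidney filter, held 0.696, 1.51, 0.827 and 1.16 CPM uninjured and 0, 0.889, 0.269 and 0.672 CPM at day 7 in young muscle (log2 fold change -1.20, SE 0.80, adjusted p = 0.196). Col4a4 and Col4a6 did not pass the test at either age. Col15a1, a multiplexin of fibre and capillary basement membranes, went from 6.11, 16.1, 8.09 and 13.7 to 158, 160, 220.1 and 204 CPM in young (log2 fold change 4.08, SE 0.36, adjusted p = 1.25e-10) and from 19.2, 12.6, 13.0 and 11.03 to 143, 142, 118 and 169 CPM in old muscle (log2 fold change 3.36, SE 0.34, adjusted p = 1.54e-09). Col18a1, the source of the fragment endostatin, rose by 4.16 and 4.62. Type IV took 7.70% ± 2.37 of collagen per kilobase in young and 5.30% ± 1.10 in old muscle at day 7 (SD, n = 4), below every uninjured library, and the fibrillar chains took 74.2% ± 2.86 and 77.4% ± 1.61, above every uninjured library.

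Ratios between collagen chains were lower at day 7 than without injury, without overlap of the libraries in 5 of the 6 comparisons made, but none passed the adjusted threshold. Col1a2, the partner of Col1a1 in type I collagen, rose by 5.49 in young and 5.73 in old muscle, each less than Col1a1. The ratio of Col1a2 to Col1a1 is taken per kilobase within a library, so that no scaling factor enters. It was 1.16, 0.784, 1.01 and 0.737 in young uninjured libraries and 0.443, 0.366, 0.369 and 0.429 at day 7. The old libraries went from 0.774, 0.730, 0.678 and 0.802 to 0.345, 0.345, 0.394 and 0.307. The mean log2 ratio differed by -1.18 in young and -1.10 in old muscle, and the groups did not overlap. Col3a1 to Col1a1 went from 1.49, 1.68, 1.62 and 1.78 to 0.539, 0.683, 0.867 and 0.569 in old muscle, without overlap, and from 1.33, 1.38, 0.888 and 1.29 to 0.799, 0.640, 0.839 and 1.01 in young muscle, where the groups overlapped. Col4a2 to Col4a1 went from 0.991, 0.891, 1.09 and 0.984 to 0.765, 0.776, 0.754 and 0.742 in young and from 0.995, 0.979, 1.04 and 1.12 to 0.749, 0.777, 0.742 and 0.811 in old muscle. Two-sided exact permutation tests of the mean log2 ratio, 4 libraries against 4, gave p = 0.0286 for 5 of these 6 differences, the smallest this design allows, and p = 0.0571 for Col3a1 to Col1a1 in young muscle. Adjusted over the 36 tests made (3 ratios in 12 pairs of groups) the smallest was 0.0735, so none passed 0.05.

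**Figure D4:**
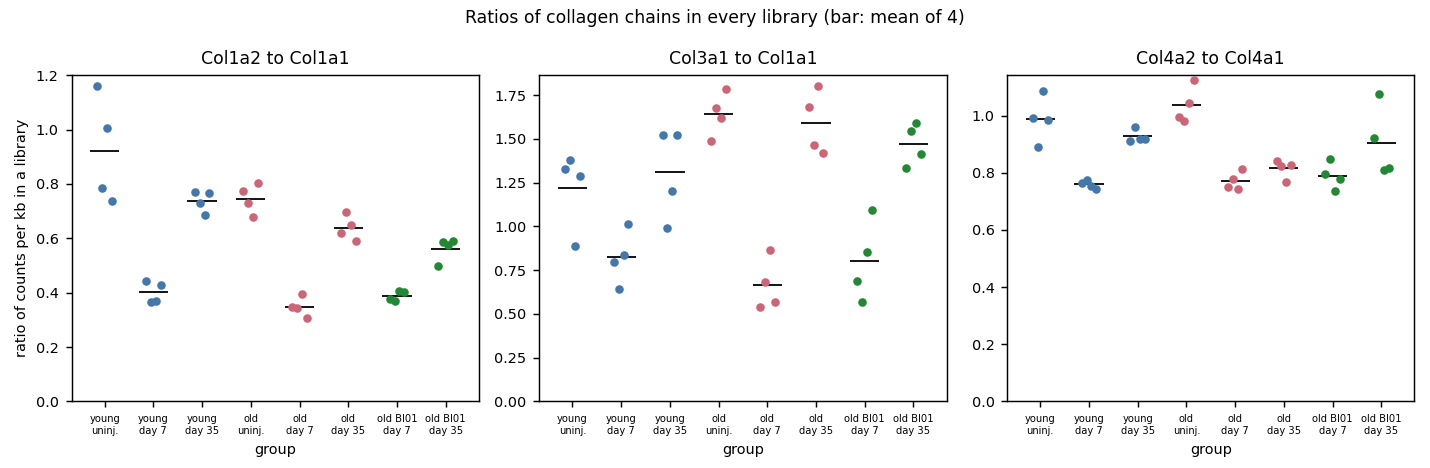
Points are the ratios of counts per kilobase of 3 pairs of collagen chains within each library, by group, and bars are means of 4 libraries. The ratio of Col1a2 to Col1a1 lies between 0.307 and 0.443 in all vehicle day 7 libraries and at or above 0.678 in all uninjured ones.

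Genes that fold, cut, link, bind and degrade collagen rose with the chains at day 7. Of all tested genes 33.3% were called higher and 27.5% lower in young muscle, and 34.4% and 29.8% in old muscle. Of 22 genes for folding and modification 15 were called higher and 2 lower in young and 17 higher and 2 lower in old muscle. With library size alone 20 and 0 were called in old muscle, where that scaling called 10770 of all 17121 genes higher and 1760 lower. Serpinh1, the chaperone of procollagen, rose from 17.9 to 305 CPM in young muscle (4.10, adjusted p = 1.63e-11), and Crtap and P3h3, which hydroxylate prolines of the chains with their partners, rose by 3.23 and 3.77. Mia3, which loads procollagen for export, was one of the 2 called lower, from 238 to 73.1 CPM in young muscle (-1.71). Of 13 genes for procollagen processing and crosslinking 10 rose in young and 12 in old muscle, among them the propeptide proteases Bmp1 (3.54 and 3.56) and Adamts2 (2.88 and 3.47), the peroxidase Pxdn that links type IV collagen (3.31 and 3.17) and, in old muscle, the crosslinking enzyme Loxl1 (3.33). Of 14 partners of the fibril 11 rose at each age, among them Sparc (3.25 and 3.55) and the small proteoglycan Aspn (3.89 and 3.78). Of 10 receptors 7 and 8 rose, among them Mrc2, which takes up collagen fragments (4.27 and 4.36), and Ddr2, a kinase that binds fibrils (1.67 and 1.96). Of 10 breakdown genes 9 and 8 rose, among them the proteases Mmp14 (4.19 and 4.46) and Mmp2 (3.07 and 3.40). No gene in the last 4 lists was called lower. Mean Pcolce2 of the processing list went from 3.556 to 1.498 CPM in young and from 3.995 to 2.547 CPM in old muscle.

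Cell type markers also moved at day 7, read against the same shares of all genes. All 10 macrophage markers were called higher at both ages, 3 of 10 fibro-adipogenic markers were higher in young and 5 of 10 in old muscle, and 5 of 8 mature fibre markers were lower in young and 7 of 8 in old muscle. The fibro-adipogenic count in young muscle was near that share. The macrophage sum went from 24.6 to 158 CPM in young uninjured libraries to 788 to 1469 CPM at day 7, and in old muscle from 35.3 to 234 CPM to 1058 to 2869 CPM. The fibro-adipogenic sum went from 344 to 542 CPM to 565 to 711 CPM in young and from 284 to 607 CPM to 513 to 821 CPM in old muscle. Gsn made up much of that sum, with a mean of 279.8 CPM uninjured and 209 CPM at day 7 in young muscle, while Lum went from 10.7 to 116 CPM, Pdgfra from 10.9 to 46.6 CPM and Cd34 from 22.6 to 74.7 CPM. Summed collagen reached 17681, 17363, 17019 and 11597 CPM in young and 23492, 15721, 13338 and 17253 CPM in old day 7 libraries, and 1.23% to 2.52% and 2.05% to 4.39% of all counts. Mature fibre marker RNA went from 235153 to 300211 CPM to 75385 to 160434 CPM in young and from 215139 to 221920 CPM to 11275 to 71204 CPM in old muscle. No marker of these lists was at 0 in any of these groups, and the part of cell composition in the collagen levels was not tested.

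At day 35 collagen had come down but not to the uninjured level. In young muscle 12 chains were called higher than without injury and none lower, where 7.06% of all genes were called higher and 8.66% lower. In old vehicle muscle 17 were higher and 1 lower, against 3.17% and 2.47%. Both comparisons use libraries that carry the name of the same collection set. The median log2 fold change of the chains was 0.82 (0.85 without Col6a4, which had no count in either group) in young and 1.07 in old muscle, beside 0.13 and 0.02 over all genes. Of the 12 chains higher in young muscle 11 (91.7%) were also higher in old muscle, which is 64.7% of the old list. The young count rests on the uninjured libraries. Without young uninjured library 3 it was 4, without library 1 it was 6, and with library size alone it was 19. Library size alone called 2593 of all 17121 genes higher and 707 lower in this comparison.

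The fibrillar chains that led at day 7 were still raised. Col1a1 held 141, 174, 142 and 76.6 CPM in young muscle (log2 fold change 1.74, SE 0.45, adjusted p = 0.00886) and 211, 197, 169 and 181 CPM in old muscle (log2 fold change 2.20, SE 0.46, adjusted p = 0.00327), above every uninjured library of its age. Without young uninjured library 3 the young call was just lost (1.52, adjusted p = 0.0503). Col3a1 held 321, 258, 255 and 175 CPM (log2 fold change 1.72, SE 0.43, adjusted p = 0.00666) and 532, 431, 457 and 386 CPM (log2 fold change 2.17, SE 0.44, adjusted p = 0.00234). In each age 6 of the 11 fibrillar chains were called higher. The one fibrillar chain called lower was Col11a2, which held 6.22, 2.58, 4.36 and 5.34 CPM in old muscle (log2 fold change -1.09, SE 0.32, adjusted p = 0.0373). That call was lost with library size alone and in 6 of the 8 fits that left out 1 library.

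The mean levels of Col24a1 and Col28a1 were as high at day 35 as at day 7 or higher. Col24a1 held 16.1, 18.4, 16.4 and 84.1 CPM at day 35 in young muscle (log2 fold change 3.42, SE 0.63, adjusted p = 0.000528), with library 4 standing far above the rest, as library 4 did among the uninjured ones. At day 35 in old muscle it held 38.2, 14.6, 14.5 and 20 CPM, above all old uninjured libraries but not called (log2 fold change 1.62, SE 0.57, adjusted p = 0.1; called at 1.62, adjusted p = 0.0122, when only the groups compared were fitted). Against day 7 it did not change beyond the test's threshold in young muscle (0.91, adjusted p = 0.159) or old muscle (1.10, adjusted p = 0.0885). Col28a1, a chain found around peripheral nerves, went from 0.464, 0.890, 0.184 and 1.06 CPM uninjured to 2.21, 1.52, 2.02 and 2.51 at day 7 and 4.20, 3.08, 2.74 and 2.90 at day 35 in young muscle (log2 fold change 2.31, SE 0.48, adjusted p = 0.00143). In old muscle it held 0.305, 0.318, 0.240 and 0.226 CPM uninjured, 1.42, 4.96, 1.88 and 5.49 CPM at day 7 and 2.86, 3.62, 3.44 and 3.89 CPM at day 35 (log2 fold change 3.63, SE 0.51, adjusted p = 3.04e-05). No day 35 library overlapped an uninjured one at either age. The 10 Schwann cell markers summed to 18.9 to 29.1 CPM in young and 30.3 to 39.7 CPM in old uninjured libraries. At day 7 they summed to 34.6 to 51.4 CPM and 42.8 to 75.4 CPM. At day 35 they summed to 19.3 to 39.8 CPM and 25.8 to 34.1 CPM, overlapping the uninjured ranges at both ages. From uninjured to day 35 mean Pmp22 rose (8.36 to 11.8 CPM in young, 10.2 to 16.5 in old). Mean Mbp fell (7.65 to 4.27 CPM and 10.3 to 4.17 CPM). The part of Schwann cells in the level of Col28a1 was not tested.

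Basement membrane chains were raised at day 35 as well, 3 of the 6 type IV chains at each age and both multiplexins in old muscle. Col4a1 held 164, 125, 149 and 114 CPM at day 35 in young (log2 fold change 0.89, SE 0.27, adjusted p = 0.0202) and 252, 231, 347 and 311 CPM in old muscle (log2 fold change 1.92, SE 0.27, adjusted p = 3.04e-05). Col15a1 held 16.4, 16.5, 18.8 and 21.5 CPM in young (log2 fold change 0.74, SE 0.33, adjusted p = 0.13; called with library size alone, adjusted p = 0.0363) and 57.1, 49.0, 74.1 and 76.5 CPM in old muscle (log2 fold change 2.20, SE 0.33, adjusted p = 9.89e-05). Every old day 35 library was above every young one for both genes. Col4a5 rose at both ages, to 6.39, 3.67, 4.26 and 3.604 CPM in young (log2 fold change 2.73, SE 0.37, adjusted p = 9.95e-06) and 8.32, 5.89, 5.06 and 4.78 CPM in old muscle (log2 fold change 1.67, SE 0.31, adjusted p = 0.00109). Type IV took 23.8% ± 2.25 of collagen per kilobase in young and 28.2% ± 4.25 in old muscle, ranges that overlapped.

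Compared directly at day 35, old and young vehicle muscle differed in 4 chains, all higher in old muscle, where 1.72% of all genes were called higher and 1.79% lower. They were Col15a1 (log2 fold change 1.81, SE 0.32, adjusted p = 0.00106), Col4a1 (log2 fold change 1.05, SE 0.27, adjusted p = 0.0204), Col4a2 (log2 fold change 0.86, SE 0.22, adjusted p = 0.0237) and Col19a1 (log2 fold change 1.84, SE 0.51, adjusted p = 0.0373). Col15a1 kept its call in every fit that left out 1 library. Col4a1 and Col4a2 lost theirs when young library 2, young library 4, old library 8 or old library 9 was left out (adjusted p between 0.0555 and 0.0895), so that 1 chain was called without either of those young libraries and 2 without either of those old ones. Col19a1 held 0.581, 1.44, 2.38 and 1.41 CPM in young and 2.79, 12.5, 3.31 and 2.10 CPM in old muscle, and rested on old library 7 (0.92, adjusted p = 0.395 without it). Fitted on the 2 groups alone 11 chains were called higher and 1 lower. The share of all genes called in that fit is not given here, so these counts cannot be set against it. Summed collagen was 1385, 1321, 1248 and 1018 CPM in young and 2150, 1845, 2065 and 1910 CPM in old muscle, without overlap. Endothelial markers, of cells that make type IV and XV collagen, summed to 513, 306, 327 and 316 CPM in young and 398, 415, 407 and 457 CPM in old day 35 libraries. Young libraries 2, 3 and 4 were thus below every old library and young library 1 was above them. None of the 10 markers was called or at 0, Kdr came nearest (34.0 and 69.9 CPM, adjusted p = 0.0595), and the part of endothelial cells in these differences was not tested. Fibro-adipogenic sums were 820 to 1141 and 733 to 1133 CPM. The ratio of Col4a2 to Col4a1 was 0.911, 0.959, 0.919 and 0.919 in young and 0.841, 0.823, 0.768 and 0.828 in old day 35 libraries (exact permutation p = 0.0286, adjusted over 36 tests 0.0735). In the test of the old minus young day 35 response itself, no chain and no gene at all was called by edgeR. At an unadjusted p under 0.05 it counted 10 chains and 1690 genes, DESeq2 called 14 genes and limma voom 1, and no chain was among the calls of any of the tools. For Col15a1 the difference was 1.47 (SE 0.46, adjusted p = 0.347) and for Col4a1 1.03 (SE 0.37, adjusted p = 0.384).

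**Figure D5:**
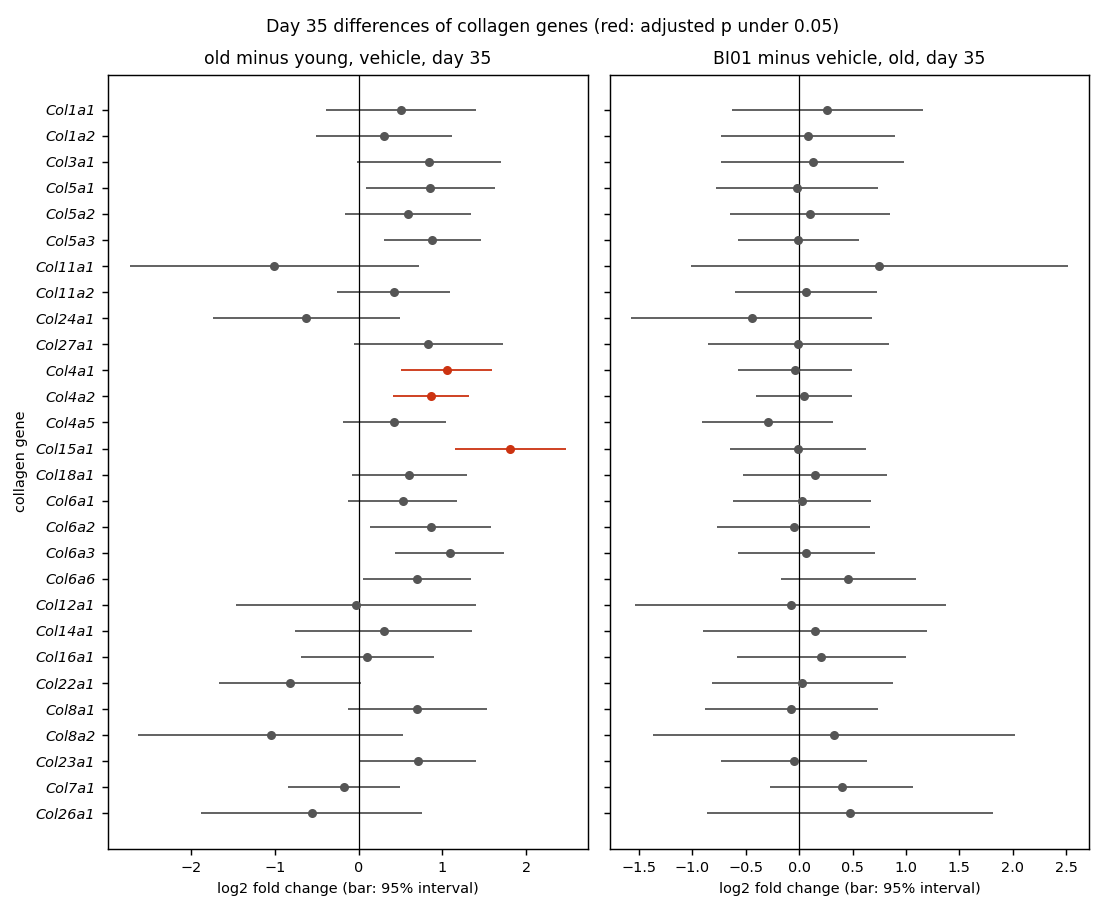
Points are log2 fold changes with 95% intervals at day 35 of the 28 collagen genes of at least 10 CPM in some group, old minus young on the left and BI01 minus vehicle in old muscle on the right, with red for an adjusted p under 0.05. Col4a1, Col4a2 and Col15a1 are red on the left, no gene is red on the right, and Col19a1, under 10 CPM in every group mean, is not drawn.

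Fewer of the genes that act on collagen were called at day 35 than at day 7, as held for all genes, of which 7.06% were higher and 8.66% lower in young muscle and 3.17% and 2.47% in old muscle. Of the 22 folding genes 2 were called higher and 3 lower in young muscle (4 and 1 with library size alone) and 3 higher and none lower in old muscle. Library size alone called 2593 of all 17121 genes higher and 707 lower in young muscle. With TMM scaling the 3 called lower in young muscle were Mia3 (-0.87), the channel gene Tmem38b (-0.60) and the prolyl hydroxylase P4ha1 (-0.82). Of the 13 processing and crosslinking genes 4 rose and 1 fell in young muscle, the latter being Loxl1 (-1.31, adjusted p = 0.00479), and 5 rose in old muscle, among them Pxdn (1.52). Of the 14 partners 4 and 5 rose, of the 10 breakdown genes 2 and 3, with Mmp2 at 1.30 in young and 2.05 in old muscle. Of the 10 receptors 1 rose and 1 fell in young muscle (3 and 0 with library size alone) and 3 rose in old muscle. Between the ages at day 35, Serpinh1 (1.08, adjusted p = 0.0322) and Fkbp14, a folding isomerase (1.00, adjusted p = 0.02), were higher in old muscle, and no gene of the other 4 lists was called.

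From day 7 to day 35 most chains were called lower, and 4 higher, in comparisons that also set differently named collection sets against each other. In young muscle 32 chains were called lower and 4 higher at day 35 than at day 7, against 29.3% and 26% of all genes. In old vehicle muscle 25 were lower and 4 higher (31.4% and 27.5% of all genes), and in old BI01 muscle 27 lower and 4 higher (29.4% and 26.2%). Col1a1 fell by 4.82 on the log2 scale in young, 4.63 in old vehicle and 3.89 in old BI01 muscle. Col4a1 fell by 2.09 in young muscle but by 0.63 in both old series (adjusted p = 1.75e-07, 0.0393 and 0.0438). Col6a6 fell by 2.12 in young muscle and was not called in old vehicle (-0.24) or BI01 muscle (-0.02). For these genes the differences between the young and old series were not tested. The 4 that rose were the same genes in all 3 series. Col9a1 rose by 3.02, 3.77 and 2.65, Col22a1 by 1.35, 2.37 and 1.82, Col4a3 by 2.43, 2.77 and 3.51 and Col4a4 by 1.29, 1.29 and 1.39. Col4a3 and Col4a4 are the head-to-head pair on chromosome 1, and Col4a3 held 2.90, 2.92, 2.16 and 1.80 CPM at day 35 in young and 2.92, 2.09, 1.20 and 2.67 CPM in old vehicle muscle. With library size alone Col4a4 was not called in any series (adjusted p = 0.149, 0.407 and 0.241), and Col22a1 and Col4a3 were not called in young muscle (0.139 and 0.0527) nor Col9a1 in BI01 muscle (0.0511).

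With BI01 no collagen chain differed from vehicle past the threshold at either time. At day 7 and at day 35 edgeR called 0 of the 43 chains and 0% of all genes. At an unadjusted p under 0.05 it counted 1 chain at each time, and 1126 and 530 genes of the table. DESeq2 called 1 gene at day 7 and 12 at day 35 and limma voom none, with no chain among them. Col1a1 held 4232, 4000, 3072 and 2150 CPM at day 7 with BI01, within or below the old vehicle range (log2 fold change -0.48, SE 0.44, adjusted p = 0.846, 95% interval -1.38 to 0.41). At day 35 it held 224, 65.3, 233 and 389 CPM, with libraries both below and above the old vehicle ones (0.26, 95% interval -0.63 to 1.16). Col4a1 at day 35 held 200.1, 122, 296 and 492 CPM (-0.04, 95% interval -0.57 to 0.50), and Col15a1 42.4, 26.1, 70.03 and 116 CPM (-0.01, 95% interval -0.65 to 0.62). The interval of Col4a1 leaves out a change of 1.05 and that of Col15a1 one of 1.81, which are their differences between the ages at day 35. That of Col1a1 takes in its own age difference of 0.51, so an effect of that size was not detectable with 4 libraries a group. The chain with the smallest p was Col19a1 at day 35, at 1.37, 1.57, 1.67 and 1.36 CPM against 2.79, 12.5, 3.31 and 2.10 CPM with vehicle (log2 fold change -1.79, SE 0.51, adjusted p = 0.911), where old vehicle library 7 again stood apart. At day 7 it was Col20a1 (log2 fold change 0.65, SE 0.29, adjusted p = 0.741).

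The BI01 libraries at day 35 differed widely in collagen. Summed collagen was 1820, 867, 2244 and 3462 CPM, against 2150, 1845, 2065 and 1910 CPM with vehicle, and 15993, 14808, 13598 and 10542 against 23492, 15721, 13338 and 17253 CPM at day 7. Library 7 was the lowest and library 9 the highest for Col1a1, Col3a1, Col4a1, Col15a1, Col6a1, Col8a1 and Col12a1. The same libraries were lowest and highest in the summed fibro-adipogenic (405 and 1132 CPM), tenocyte (31.7 and 167 CPM) and endothelial markers (330 and 592 CPM). Gsn made up much of the fibro-adipogenic sum (a mean of 596 CPM). Other lists were ordered otherwise. Library 6 was highest for macrophage (306 CPM), mural (6049 CPM) and Schwann cell markers (42.9 CPM). Des made up most of the mural sum (a mean of 4282 CPM, where the sum averaged 5288 CPM). Library 7 was highest for mature fibre markers (250474 CPM) and regenerating fibre markers (466 CPM). The part of cell composition in the spread of collagen was not tested. The difference between the BI01 effects at day 35 and day 7 was called by edgeR for no chain and no gene, with 1 chain and 825 genes at an unadjusted p under 0.05, 2 genes called by DESeq2 and none by limma voom.

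Over the 8 group means, 26 other collagens had a Pearson r over 0.9 with Col1a1 in log2 CPM. The 5 genes most like Col1a1 among 17120 compared were Ptk7, Irak3, Col14a1, Col1a2 and Dtx4, all at 0.999. For Col4a1 they were Col4a2 (0.999), Gimap4 (0.993), Fam92a (0.993), Col15a1 (0.99) and Ptprk (0.989), and 19 collagens were over 0.9. The genes most like the chains that went against the rest were Tsr3 for Col9a1 (0.991), Pxmp4 for Col22a1 (0.98), Pfkfb2 for Col7a1 (0.988) and Slco4a1 for Col11a2 (0.984). Col9a1 and Col22a1 were like each other (0.947), and Col1a1 and Col9a1 ran opposite (-0.903). These values describe 8 means that share the contrast of day 7 with the other times.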

How the data were processed

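The authors deposited 1 table of read counts per gene for the 32 libraries, from total RNA of tibialis anterior muscle sequenced as mRNA per the labels' protocols. HISAT2 and the mm10 build are named per the submitters' processing notes. Which tool counted the reads, on which annotation and whether by strand, is not given in the sources used here. Table columns were matched to groups, not to single samples, since their numbers differ from those in the sample titles.

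Counts were analysed in R 4.3.3 with edgeR 4.0.16 (filterByExpr, TMM, robust glmQLFit with 1 mean per group over all libraries, prior count 2), with Benjamini-Hochberg adjustment over 17121 genes at 0.05. DESeq2 1.42.0, limma voom (limma 3.58.1), library size alone, other filters, fits of only the groups compared and leaving out each library were the alternatives, and the scripts were tested on simulated data. Values per library are given for the 3 chains of highest CPM per kilobase of each class and the 3 largest rises and falls called, or all where 5 or fewer were called, from 1 CPM in some group. Up to 4 genes of smallest p were named per further list. The members, lists and comparisons were chosen with earlier results of these data known. A fold against a group without counts is a bound from 3 counts over the group. Intervals of fold changes cover 95%. Promoters came from the RefSeq table, and collagen protein sequences were not used here.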

Additional observations from a re-analysis of the deposited data

Results flagged for a closer look

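In groups of 4 libraries, 14 of 176 tested groups of values held a highest or lowest library whose gap to the next exceeded Dixon's 95% critical share of the group's range, a limit that chance passes in about 1 of 20 groups. Col24a1, a minor fibrillar chain, was far higher in library 4 than in the other young libraries, both uninjured (9.74 CPM) and at day 35 (84.1 CPM), and low in old day 7 library 7 (6.70 CPM). In that same old library Col3a1 stood high (5301 CPM). Young day 7 library 7 was low for Col6a1 (359 CPM) and for the sum of all chains (11597 CPM). Col19a1 was high in old day 35 library 7 (12.5 CPM), Col28a1 in BI01 day 35 library 9 (7.60 CPM), Col8a2 in old day 7 library 8 (26.1 CPM) and Col6a1 in old day 35 library 6 (96.8 CPM). Col9a1 was high in young day 35 library 4 (7.36 CPM) and in old day 7 library 9 (0.613 CPM, the others at 0). Col7a1 was low in young day 7 library 4 (15.4 CPM) and Col6a6 in old uninjured library 9 (1.04 CPM).

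The response to injury at day 7 differed between old and young muscle in the test of the difference itself for Col22a1 (-2.23) and Col11a2 (-1.57). In that test 7.7% of all genes were called. The day 7 libraries and the uninjured libraries carry the names of different sets.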

How the results depend on the processing

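Of the values recomputed under other settings, 2939 kept their direction and side of the threshold, 165 lost the threshold, 6 gained it and 18 changed sign. The 18 are those of Col22a1 (0.18), Col7a1 (0.84) and Col11a2 (0.55) at day 7 and Col15a1 with BI01 at day 35 (0.022) with library size alone, and fits without 1 library, whose log2 fold changes ran from -0.36 to 0.38 for Col1a1 by age without injury and from -0.15 to 0.16 for Col7a1 at day 7 in young muscle. With BI01 at day 35 they ran from -0.12 to 0.57 for Col1a1, -0.47 to 0.21 for Col4a1 and -0.47 to 0.25 for Col15a1. Counts of called chains moved by over 1.5 times with library size alone for young muscle at day 35 (19) and age at day 7 (1), without a filter on low counts for age at day 7 (1) and the old minus young day 7 response (1), and with only the compared groups fitted for age at day 7 (0), age at day 35 (12) and that day 7 response (0). Library size alone also gave 8 fibril partners and 4 breakdown genes in young muscle at day 35 and 0 receptors by age without injury. Of all 17121 genes it called 2593 higher and 707 lower in the former comparison, and 1952 higher and 552 lower in the latter. It put the log2 ratio of summed collagen at 5.84 and 5.81 at day 7 in young and old muscle (4.93 and 4.78 with TMM). For age at day 7 that ratio was 0.46. The causes were not tested. Leaving out 1 library gave 1 to 6 chains for age without injury, 4 to 16 for young muscle at day 35, 0 to 3 for age at day 7, 1 to 4 for age at day 35, 0 to 5 for the day 7 and 0 to 1 for the day 35 response difference. With the table number as a replicate block, chosen after seeing the data, 15 chains were called at day 35 in young and 24 in old muscle. The shares of all genes called with that block, or with only the compared groups fitted, are not given here. Same-numbered libraries correlated in their deviations by 0.161, -0.0322, 0.153 and 0.157 in young and 0.00889 to 0.109 in old muscle, so the numbers were not taken as pairs. Of the young values 3 of 4 lay above every pair of different numbers (at most 0.132), while in old muscle the highest was a pair of different numbers (0.121). In that replicate block fit Col15a1 was called in young muscle (adjusted p = 0.0461), Col3a1 was not (0.056), and Col24a1 was called in old muscle (0.000143).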
